A study of Mus musculus with 14 samples.

Results

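Aminoacyl-tRNA synthetases are the enzymes that join each amino acid to its matching tRNA, and their genes were followed here in whole mouse lung after mechanical ventilation. The genes were chosen by symbol: 1 capital letter followed by ars, with an optional 1 or 2 at the end, plus Eprs, Farsa and Farsb. The rule found 35 genes among 18194 genes with a named probe set on the array. A probe set is the group of short oligonucleotides that reports a transcript. Where a gene had several, the brightest by its mean over the 14 arrays was used. The 35 genes comprised 19 for cytosolic enzymes and 16 for mitochondrial enzymes.

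The series compared lungs given PBS, recombinant human pre-B-cell colony-enhancing factor (PBEF, the product of Nampt) into the trachea, ventilator-induced lung injury, or both, per its design text. The group labelled Control (n = 4) received PBS. The group labelled VALI (n = 4) was ventilated for 4 hours at a tidal volume that the sample labels give as 40 ml/kg and the design text as 30 ml/kg. The group labelled PBEF+/- (n = 3) was not ventilated, and the group labelled VILI PBEF+/- (n = 3) was ventilated for 4 hours at 40 ml/kg in the labels. Mice of the first 3 groups were 18 to 22 weeks old, while those of VILI PBEF+/- were 8 to 12 weeks old. The labels do not say whether PBEF+/- names a genotype or the given protein, and no strain is given in the sources used here. Nothing in the labels states that each array came from a separate animal, so the spread behind each p-value is that between arrays and may be technical.

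In each of 2 groups, 1 array went against its label in its Il6 level. Il6, a cytokine gene, read 9.60 to 9.85 on the log2 scale on VALI replicates 1 to 3 and 2.78 on VALI replicate 4, against 2.09 to 2.45 in Control. It read 2.10 and 2.56 on PBEF+/- replicates 1 and 2 and 10.87 on replicate 3, against 10.32 to 12.75 in VILI PBEF+/-. Nampt also set these arrays apart within their groups. It read 9.25 on VALI replicate 4 against 9.91 to 10.54 on the others of its group. On PBEF+/- replicate 3 it read 10.71, against 9.34 and 9.21 on replicates 1 and 2, near which VALI replicate 4 lay. Nampt did not set apart these arrays alone, as it read 9.28 on VILI PBEF+/- replicate 3 against 10.79 and 10.62 on replicates 1 and 2. It read 10.21, 10.36, 10.21 and 9.95 in Control. VALI replicate 4 was also not like Control in every gene. Il1r2 read 6.55 on it against 2.69 to 3.95 in Control, and Psat1 8.58 against 7.04 to 7.74. Slc7a11 (3.05 against 2.69 to 3.09) and Mmp8 (2.96 against 2.91 to 3.41) lay inside the Control range. Whether this array had a weak response or a wrong label, such as an exchange with PBEF+/- replicate 3, was not tested. VALI replicate 4 and PBEF+/- replicate 3, the doubted arrays, were kept in every result as labelled and left out in a repeat of it. These arrays were singled out by their own values, and the calls made without them depend on that choice and do not stand as separate evidence. The lung label was checked against alveolar type II cell markers, of which the dimmest by its mean over the arrays, Abca3, had a level of 12.37. Transcripts of the X and Y chromosomes split the arrays into 10 with a female and 4 with a male pattern. The male pattern was seen on Control replicates 1 and 4, VALI replicate 4 and PBEF+/- replicate 2, so without the doubted arrays all ventilated arrays were of the female pattern.

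Cytosolic synthetases charge tRNAs for the ribosomes that translate nuclear mRNAs, and a separate nuclear-encoded set serves the mitochondrial ribosome. Several cytosolic enzymes, with the scaffold proteins Aimp1, Aimp2 and Eef1e1, sit in a multisynthetase complex. When uncharged tRNA or other stress activates eIF2α kinases, translation of the transcription factor ATF4 increases, and ATF4 raises genes for amino acid synthesis, amino acid transport and many cytosolic synthetases. It binds with C/EBP partners to a C/EBP-ATF response element. Accordingly the genes were described in 3 roles: 13 cytosolic synthetases described as ATF4 targets, 6 other cytosolic synthetases and 16 mitochondrial synthetases.

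The promoters of these genes are shown because 9 of the 13 described ATF4 targets were called higher in each ventilation comparison without the doubted arrays. Of all genes tested, 6.53% were called higher in VALI against Control and 11.2% in VILI PBEF+/- against PBEF+/-. The latter groups also differ in age. As labelled, 0 of the 13 were called in either. RefSeq windows from 250 bases before to 50 bases after the transcription start (build GRCm38.p6) were held for 26 of the 35 genes. The letters TGATGNAA, or TTNCATCA on the opposite strand, were present in the windows of 5 of the 26 genes (19.2%). These were Aars, Gars, Iars, Tars and Yars, which are 5 of the 8 ATF4-target synthetases matched (62.5%), and the letters were found in 0 of 4 other cytosolic and 0 of 14 mitochondrial genes. The windows of Eprs, Mars1 and Sars, the other ATF4 targets matched, did not hold the letters. No window was held for Cars, Lars, Nars, Vars and Wars. The same letters occurred in 1219 of 27025 genes of the table (4.51%) and in 1304 of 32851 windows (3.97%). A match describes the letters and is no evidence of binding. The stretches that hold the element are given 5′ to 3′ on the gene's strand, with the element in capitals. That of Aars lies at chr8:111033670-111033797 on the plus strand, and the element in capitals begins 112 bases before the start. A second match in the Aars window, 10 bases after the start, lies outside the stretch shown.
Aars: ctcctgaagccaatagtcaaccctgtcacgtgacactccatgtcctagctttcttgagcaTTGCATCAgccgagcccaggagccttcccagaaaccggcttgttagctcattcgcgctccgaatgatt
The stretch of Gars lies at chr6:55037911-55038000 on the plus strand, with the element from 30 bases before the start.
Gars: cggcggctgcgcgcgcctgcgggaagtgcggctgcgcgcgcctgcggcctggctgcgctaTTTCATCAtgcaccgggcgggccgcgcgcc
The stretch of Tars lies at chr15:11399659-11399733 on the minus strand, with the element from 15 bases before the start.
Tars: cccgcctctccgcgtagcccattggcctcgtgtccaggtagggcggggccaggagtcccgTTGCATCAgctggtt
In Iars (chr13:49682126-49682155, plus strand) and Yars (chr4:129189895-129189924, plus strand) the element begins 8 and 4 bases after the start.
Iars: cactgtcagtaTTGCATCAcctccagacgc
Yars: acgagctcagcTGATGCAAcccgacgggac

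Of the 35 genes, 33 passed the filter on low values, which asked for a level above the array median on at least 3 arrays. Ears2 and Mars2, for the mitochondrial glutamyl and methionyl enzymes, were above it on 0 arrays, with means of 3.89 and 3.68. Of the 33, 31 were above the median on all 14 arrays. Pars2 was above it on 11 arrays and Wars2 on 3. All levels are deposited log2 expression values, on which a difference of 1 is a 2-fold change, and levels of different genes are not compared.

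**Figure D1:**
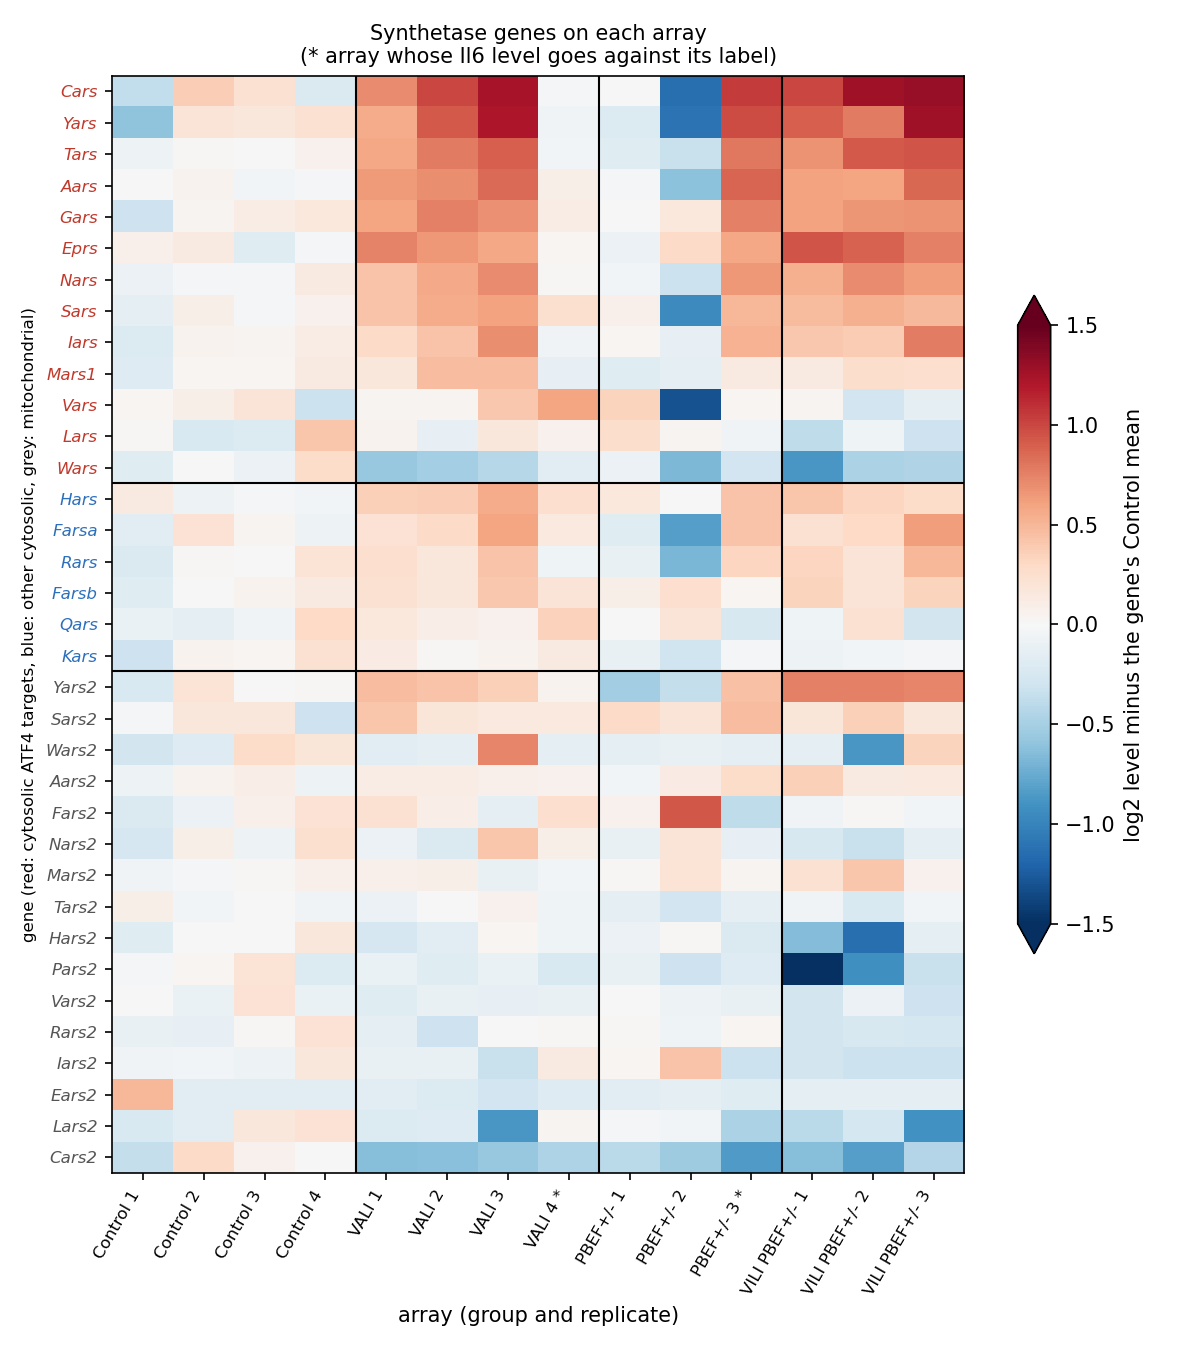
Level of each of the 35 synthetase genes (rows) on each of the 14 arrays (columns), as the log2 value minus the mean of Control, with colour running from blue (lower) to red (higher). Row labels are red for cytosolic ATF4 targets, blue for other cytosolic and grey for mitochondrial genes, and asterisks mark VALI replicate 4 and PBEF+/- replicate 3. Averaged over the ATF4 targets, VALI replicates 1 to 3 lay 0.36 to 0.62 above the Control mean and VALI replicate 4 lay 0.05 above it.

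Ventilation was first compared with PBS in VALI against Control. As labelled, none of the 33 tested genes was called by limma at an adjusted p under 0.05, as was the case for 0% of all 11360 genes tested. At an unadjusted p under 0.05 there were 9 of the 33, against 18.3% of all genes. The smallest adjusted p was 0.114, for Hars, the histidyl enzyme (log2 difference 0.38 ± 0.10, SE). The groups did not overlap for 4 genes that were higher in VALI, Aars, Farsb, Hars and Sars (4.7% of all genes), and for 2 that were lower, Cars2 and Vars2 (5.98%).

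Without the doubted arrays (n = 3 against 4), 11 of 33 genes rose and 1 fell, against 6.53% and 10.5% of all genes, so that 12 were called where 17% of all genes were. Leaving out VALI replicate 4 alone gave 3 calls. PBEF+/- replicate 3 is in neither group and acts here through the shared estimate of spread. An unadjusted p under 0.05 was reached by 15 of the 33 (32.5% of all genes). Of the 13 cytosolic ATF4 targets, 9 rose: Aars, Cars, Eprs, Gars, Iars, Mars1, Nars, Tars and Yars. Their role's median log2 difference was 0.57, against -0.08 over all genes tested. Of the 6 other cytosolic genes Hars rose, with a median of 0.28. Among 14 mitochondrial genes Yars2 rose and Cars2 fell, with a median of -0.06. The groups did not overlap for 14 genes that were higher (12.4% of all genes) and 4 that were lower, Cars2, Iars2, Vars2 and Wars (23.1%). In bulk tissue, a change in RNA per cell and a change in the share of cells that carry it cannot be told apart.

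Tars, which charges threonine, read 9.37, 9.47, 9.45 and 9.52 in Control and 10.04, 10.23, 10.35 and 9.41 in VALI. It read 9.27, 9.12 and 10.25 in PBEF+/- and 10.12, 10.37 and 10.40 in VILI PBEF+/-. VALI replicate 4 thus lay inside the Control range and PBEF+/- replicate 3 inside that of VILI PBEF+/-. Without them the log2 difference of VALI from Control was 0.75 ± 0.11 (SE, limma adjusted p = 0.00121), or 1.68-fold. As labelled it was 0.55 ± 0.24 (adjusted p = 0.245).

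Eprs, whose protein charges both glutamate and proline, read 10.67, 10.72, 10.41 and 10.57 in Control and 11.34, 11.24, 11.18 and 10.62 in VALI. It read 10.51, 10.88 and 11.17 in PBEF+/- and 11.53, 11.48 and 11.35 in VILI PBEF+/-. VALI replicates 1 to 3 lay above every Control array, and replicate 4 did not. The log2 difference without the doubted arrays was 0.66 ± 0.11 (adjusted p = 0.00275), and all 4 probe sets of the gene had positive differences.

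Aars, the alanyl enzyme, read 10.18, 10.23, 10.13 and 10.16 in Control and 10.81, 10.87, 11.03 and 10.26 in VALI. It read 10.15, 9.56 and 11.05 in PBEF+/- and 10.77, 10.77 and 11.04 in VILI PBEF+/-. Control and VALI did not overlap even with replicate 4, which lay just above the highest Control array. The log2 difference without the doubted arrays was 0.73 ± 0.13 (adjusted p = 0.00443).

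Nars, the asparaginyl enzyme, read 11.39, 11.46, 11.46 and 11.61 in Control and 11.91, 12.05, 12.18 and 11.49 in VALI. It read 11.44, 11.15 and 12.13 in PBEF+/- and 12.02, 12.19 and 12.10 in VILI PBEF+/-. VALI replicate 4 again lay among Control arrays. The log2 difference without the doubted arrays was 0.57 ± 0.10 (adjusted p = 0.00315). Gars, the glycyl enzyme of both cytosol and mitochondria, read 10.22, 10.57, 10.64 and 10.69 in Control and 11.12, 11.29, 11.21 and 10.64 in VALI. Its levels were 10.52, 10.69 and 11.28 in PBEF+/- and 11.13, 11.20 and 11.21 in VILI PBEF+/-. Replicate 4 lay inside the Control range, and the log2 difference without the doubted arrays was 0.68 ± 0.11 (adjusted p = 0.00276).

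Larger differences with wider spread were seen for Cars and Yars, the cysteinyl and tyrosyl enzymes. Cars read 6.91, 7.64, 7.50 and 7.05 in Control and 7.99, 8.28, 8.52 and 7.25 in VALI. Its log2 difference without the doubted arrays was 0.99 ± 0.27 (adjusted p = 0.0265). With the female or male pattern as a covariate it was 0.60 (adjusted p = 0.054), and that of Yars was 0.63 (adjusted p = 0.135). Yars read 6.57, 7.37, 7.35 and 7.40 in Control and 7.73, 8.10, 8.39 and 7.12 in VALI, with a difference of 0.90 ± 0.27 (adjusted p = 0.0414). The low Control array of Yars was replicate 1. Iars, Mars1 and Hars rose by smaller amounts, with log2 differences of 0.47 ± 0.13, 0.36 ± 0.11 and 0.42 ± 0.09. Second probe sets of Hars and Iars had differences of 0.10 and 0.33 (limma, unadjusted p = 0.386 and 0.13). With the mean of all probe sets of a gene, the differences were 0.26 for Hars and 0.50 for Cars, whose second probe set was below the array median on every array. Of the 12 fits that each left out 1 further array, the call held in 8 for Cars, 3 for Yars, 7 for Iars and 5 for Mars1. It was lost for each of these 4 genes without Control replicate 1, VALI replicate 2 or VALI replicate 3. Leaving out Control replicate 4 also ended the call of Cars, and leaving out Control replicate 2 or 3 those of Iars and Mars1. The call of Yars was lost without any 1 of the Control and VALI arrays. Leaving out VILI PBEF+/- replicate 1 or 2, which enter through the shared estimate of spread, ended the calls of Yars and Mars1.

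Iars, the isoleucyl enzyme, read 10.11, 10.38, 10.37 and 10.43 in Control and 10.61, 10.75, 11.02 and 10.27 in VALI. It read 10.35, 10.20 and 10.84 in PBEF+/- and 10.73, 10.71 and 11.09 in VILI PBEF+/-. VALI replicate 4 lay inside the Control range and the other VALI arrays above it. Mars1, the methionyl enzyme, read 9.65, 9.87, 9.87 and 9.97 in Control and 10.01, 10.31, 10.30 and 9.71 in VALI. It read 9.66, 9.70 and 9.98 in PBEF+/- and 9.98, 10.11 and 10.09 in VILI PBEF+/-. As for Iars, VALI replicate 4 lay inside the Control range and the other VALI arrays above it. Hars read 11.56, 11.34, 11.41 and 11.38 in Control and 11.78, 11.78, 11.97 and 11.67 in VALI, and here replicate 4 too lay above every Control array. It read 11.58, 11.43 and 11.84 in PBEF+/- and 11.83, 11.74 and 11.70 in VILI PBEF+/-.

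The remaining ATF4 targets did not pass the test. Sars, the seryl enzyme, had a log2 difference of 0.53 ± 0.19 (adjusted p = 0.0721), and all VALI arrays lay above all Control arrays. Vars and Lars, the valyl and leucyl enzymes, had differences of 0.16 ± 0.31 and 0.03 ± 0.16. Wars, the tryptophanyl enzyme and also an interferon-inducible gene, read 10.84, 11.01, 10.92 and 11.29 in Control and 10.45, 10.50, 10.59 and 10.86 in VALI. It was the ATF4 target with a negative difference, -0.50 ± 0.16 (adjusted p = 0.0525), and all 4 of its probe sets had negative differences here.

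The other cytosolic genes apart from Hars had smaller or more variable differences. Farsa and Farsb, the subunits of the phenylalanyl enzyme, had log2 differences of 0.37 ± 0.18 and 0.27 ± 0.10, neither of which passed (adjusted p = 0.18 and 0.0889). Rars, the arginyl enzyme, had a difference of 0.29 ± 0.15. Kars and Qars, the lysyl and glutaminyl enzymes, had differences of 0.07 ± 0.12 and 0.11 ± 0.14.

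Of the mitochondrial genes, the calls were for Yars2 and Cars2. Yars2, the mitochondrial tyrosyl enzyme, read 7.34, 7.78, 7.59 and 7.59 in Control and 8.04, 8.01, 7.93 and 7.62 in VALI. Its log2 difference without the doubted arrays was 0.42 ± 0.12 (adjusted p = 0.0377), and its call held in 4 of the 12 such fits, being lost without any 1 of Control replicates 1, 3 and 4, VALI replicates 1 to 3 and VILI PBEF+/- replicates 1 and 2. Cars2, the mitochondrial cysteinyl enzyme, read 6.61, 7.26, 7.03 and 6.97 in Control and 6.32, 6.34, 6.40 and 6.51 in VALI, so the groups did not overlap. It read 6.56, 6.44 and 6.12 in PBEF+/- and 6.33, 6.14 and 6.53 in VILI PBEF+/-. Its difference from Control in VALI was -0.61 ± 0.17 (adjusted p = 0.0266). Its call was lost in 6 of 12 fits that each left out 1 further array, namely Control replicate 2, 3 or 4 or VALI replicate 1, 2 or 3, and its other probe sets were below the array median on every array. A second probe set of Yars2 had a difference of 0.84. The other 12 tested mitochondrial genes had differences from -0.42 (Lars2, the leucyl enzyme) to 0.25 (Sars2, the seryl enzyme).

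**Figure D2:**
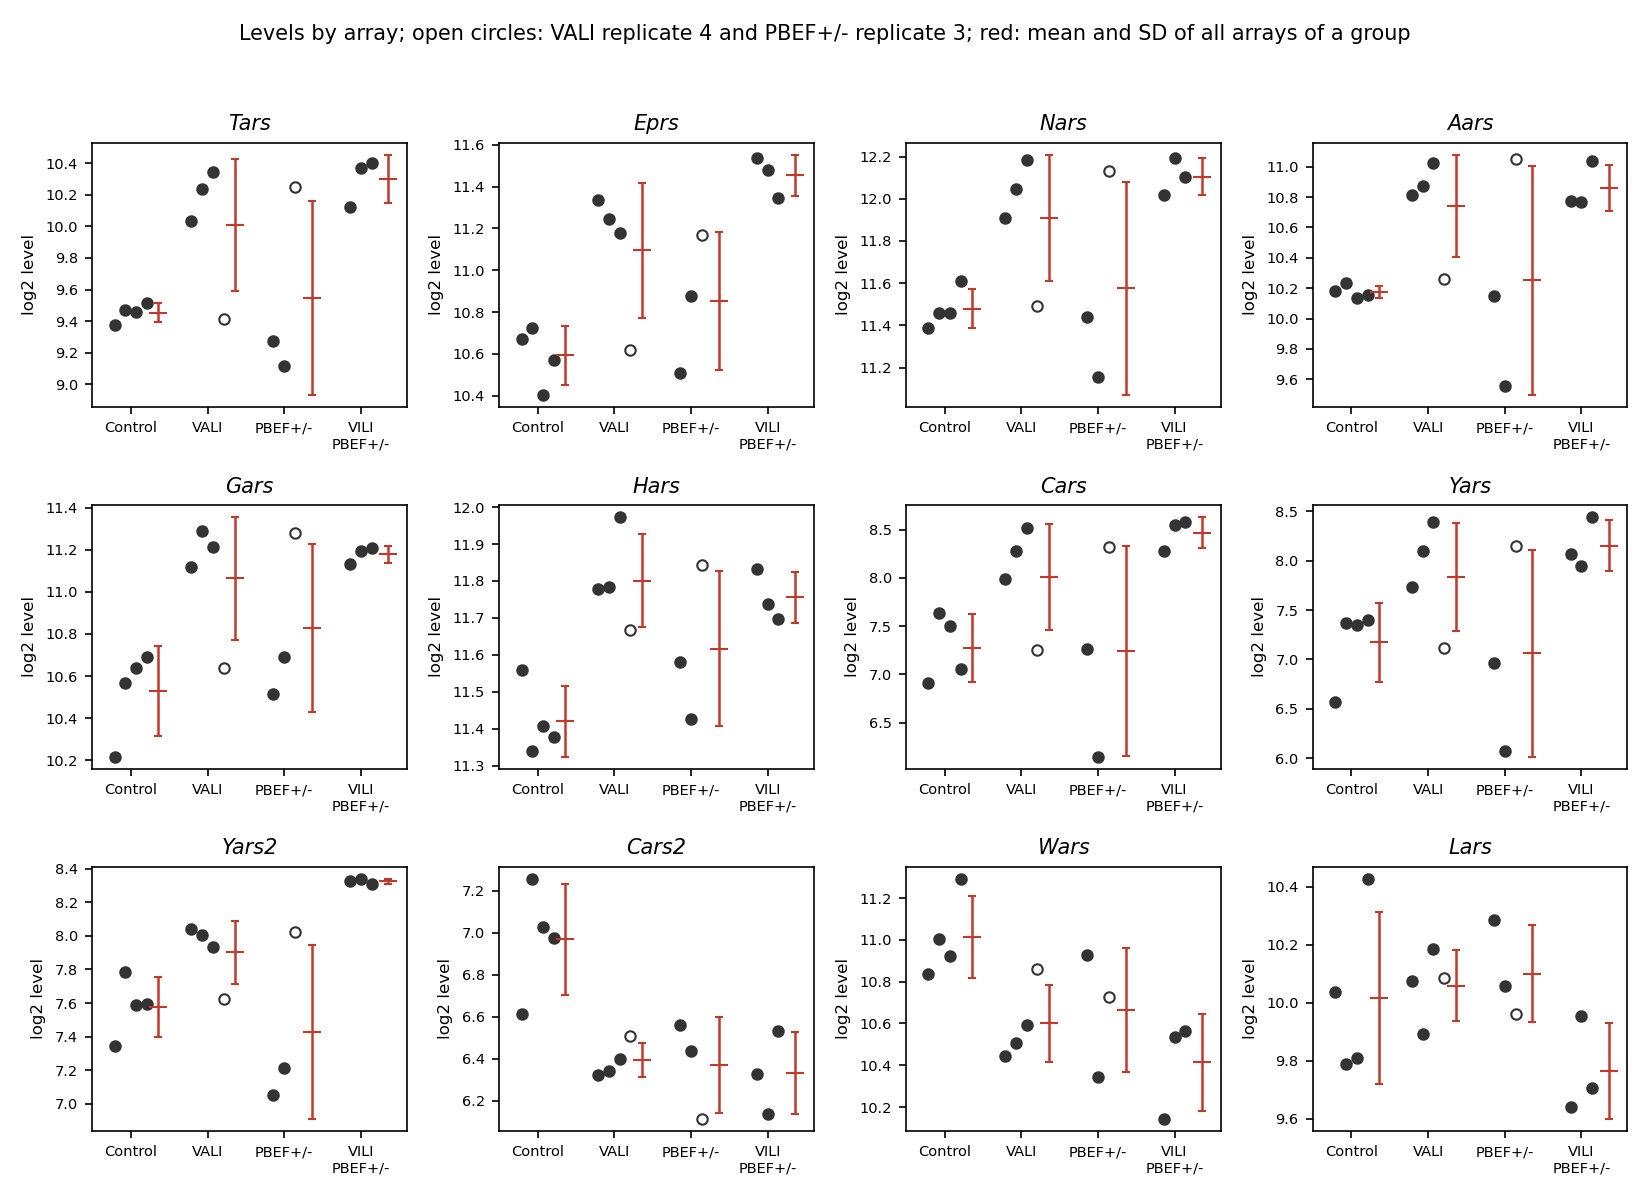
Log2 level of 12 synthetase genes by group, with 1 point for each of the 14 arrays and red marks for the mean and SD of all arrays of a group. Open circles are VALI replicate 4 and PBEF+/- replicate 3. For Tars, Eprs and Nars the open circle of VALI sits within the Control range, while for Wars 3 of the 4 VALI points lie below every Control point.

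The second ventilation comparison, VILI PBEF+/- against PBEF+/-, differs also in age, and age and ventilation cannot be told apart in it. As labelled, 0 of 33 genes and 0% of all genes were called by limma. At an unadjusted p under 0.05 there were 11 of the 33, against 20.7% of all genes. The groups did not overlap for Eprs and Yars2, which were higher (8.47% of all genes), and for Lars, Nars2, Pars2 and Rars2, which were lower (10.8%). Without the doubted arrays (n = 3 against 2), 12 of 33 genes rose and Iars2 fell, against 11.2% and 15.3% of all genes, or 13 against 26.4% in either direction. An unadjusted p under 0.05 was reached by 18 of the 33 (40.5% of all genes). The cytosolic ATF4 targets Aars, Cars, Eprs, Gars, Iars, Nars, Sars, Tars and Yars rose, 9 of 13, with a median log2 difference of 0.76 for the role. Farsa and Rars rose among the 6 other cytosolic genes (median 0.20), and Yars2 among the 14 mitochondrial genes (median -0.21), against a median of -0.07 over all genes tested.

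The largest log2 difference was that of Cars, 1.76 ± 0.32 (adjusted p = 0.00293). Its levels were 7.26, 6.15 and 8.32 in PBEF+/- and 8.28, 8.55 and 8.58 in VILI PBEF+/-. PBEF+/- replicate 2 was the lowest of all 14 arrays for Cars, as it was for Aars (9.56), Farsa (7.04), Nars (11.15), Rars (8.67), Sars (9.70), Tars (9.12), Tars2 (8.26), Vars (5.36) and Yars (6.07). The same array had the lowest upper quartile of all values, 8.60. Its part in these differences was not tested beyond leaving it out, and Farsa, Iars, Rars and Iars2 were no longer called without it, when 1 PBEF+/- array remained and was assumed to vary like the other groups. Tars had a difference of 1.10 ± 0.13 (adjusted p = 0.000236) and Nars one of 0.81 ± 0.12 (adjusted p = 0.000904), and both kept their calls without that array, at 1.03 and 0.67. Without it the differences of Farsa, Rars, Sars and Iars2 were 0.56, 0.45, 0.42 and -0.33.

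Yars read 6.97, 6.07 and 8.15 in PBEF+/- and 8.07, 7.95 and 8.44 in VILI PBEF+/-, a log2 difference of 1.63 ± 0.32 (adjusted p = 0.00464). Sars read 10.73, 9.70 and 11.16 in PBEF+/- and 11.14, 11.19 and 11.15 in VILI PBEF+/-, a difference of 0.94 ± 0.22 (adjusted p = 0.0109) that was 0.42 without PBEF+/- replicate 2 and 1.46 without replicate 1. In Control and VALI, Sars read 10.52, 10.75, 10.64 and 10.72 and then 11.08, 11.22, 11.27 and 10.90. Farsa read 7.69, 7.04 and 8.29 in PBEF+/- and 8.10, 8.17 and 8.49 in VILI PBEF+/-, and Rars read 9.25, 8.67 and 9.68 against 9.68, 9.55 and 9.86. In these 4 genes PBEF+/- replicate 3 stood with the ventilated arrays. In Control and VALI, Farsa read 7.69, 8.08, 7.90 and 7.78 and then 8.09, 8.15, 8.46 and 8.01. Rars read 9.15, 9.37, 9.36 and 9.56 and then 9.61, 9.53, 9.79 and 9.29, so for both genes Control and VALI overlapped as labelled. Aars and Eprs had differences of 1.01 ± 0.16 and 0.76 ± 0.13. Farsa, Rars, Gars and Iars rose by 0.89 ± 0.21, 0.74 ± 0.18, 0.57 ± 0.14 and 0.57 ± 0.16, and the call of Iars was also lost without VILI PBEF+/- replicate 3. Mars1 and Hars, which rose in VALI, had differences of 0.38 ± 0.13 and 0.25 ± 0.10 here and did not pass (adjusted p = 0.0515 and 0.0909). Lars had a difference of -0.40 ± 0.19, Wars of -0.22 ± 0.19 and Vars of 0.36 ± 0.37, and 1 of the 4 probe sets of Wars had a positive difference, 0.26.

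Yars2 read 7.05, 7.22 and 8.02 in PBEF+/- and 8.33, 8.34 and 8.31 in VILI PBEF+/-. The 3 ventilated arrays lay above every other array of the series, and the log2 difference was 1.19 ± 0.15 (adjusted p = 0.000309). The second probe set of Yars2 had a difference of 0.67 here (limma, unadjusted p = 0.073). Iars2, the mitochondrial isoleucyl enzyme, read 9.82, 9.84, 9.80 and 10.05 in Control and 9.77, 9.77, 9.54 and 10.01 in VALI. It read 9.90, 10.31 and 9.55 in PBEF+/- and 9.61, 9.55 and 9.55 in VILI PBEF+/-, a difference of -0.54 ± 0.14 (adjusted p = 0.0176). Pars2 and Hars2, the mitochondrial prolyl and histidyl enzymes, had differences of -0.72 ± 0.30 and -0.61 ± 0.24 that did not pass (adjusted p = 0.0938 and 0.082). Non-overlapping groups were found for 16 genes of the 33 that were higher and 9 that were lower, against 20.9% and 30.1% of all genes. The count of lower genes thus did not exceed the share of all genes. Of the 14 tested mitochondrial genes, 8 were among the 9 lower ones, and 1 of these, Iars2, was called.

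**Figure D3:**
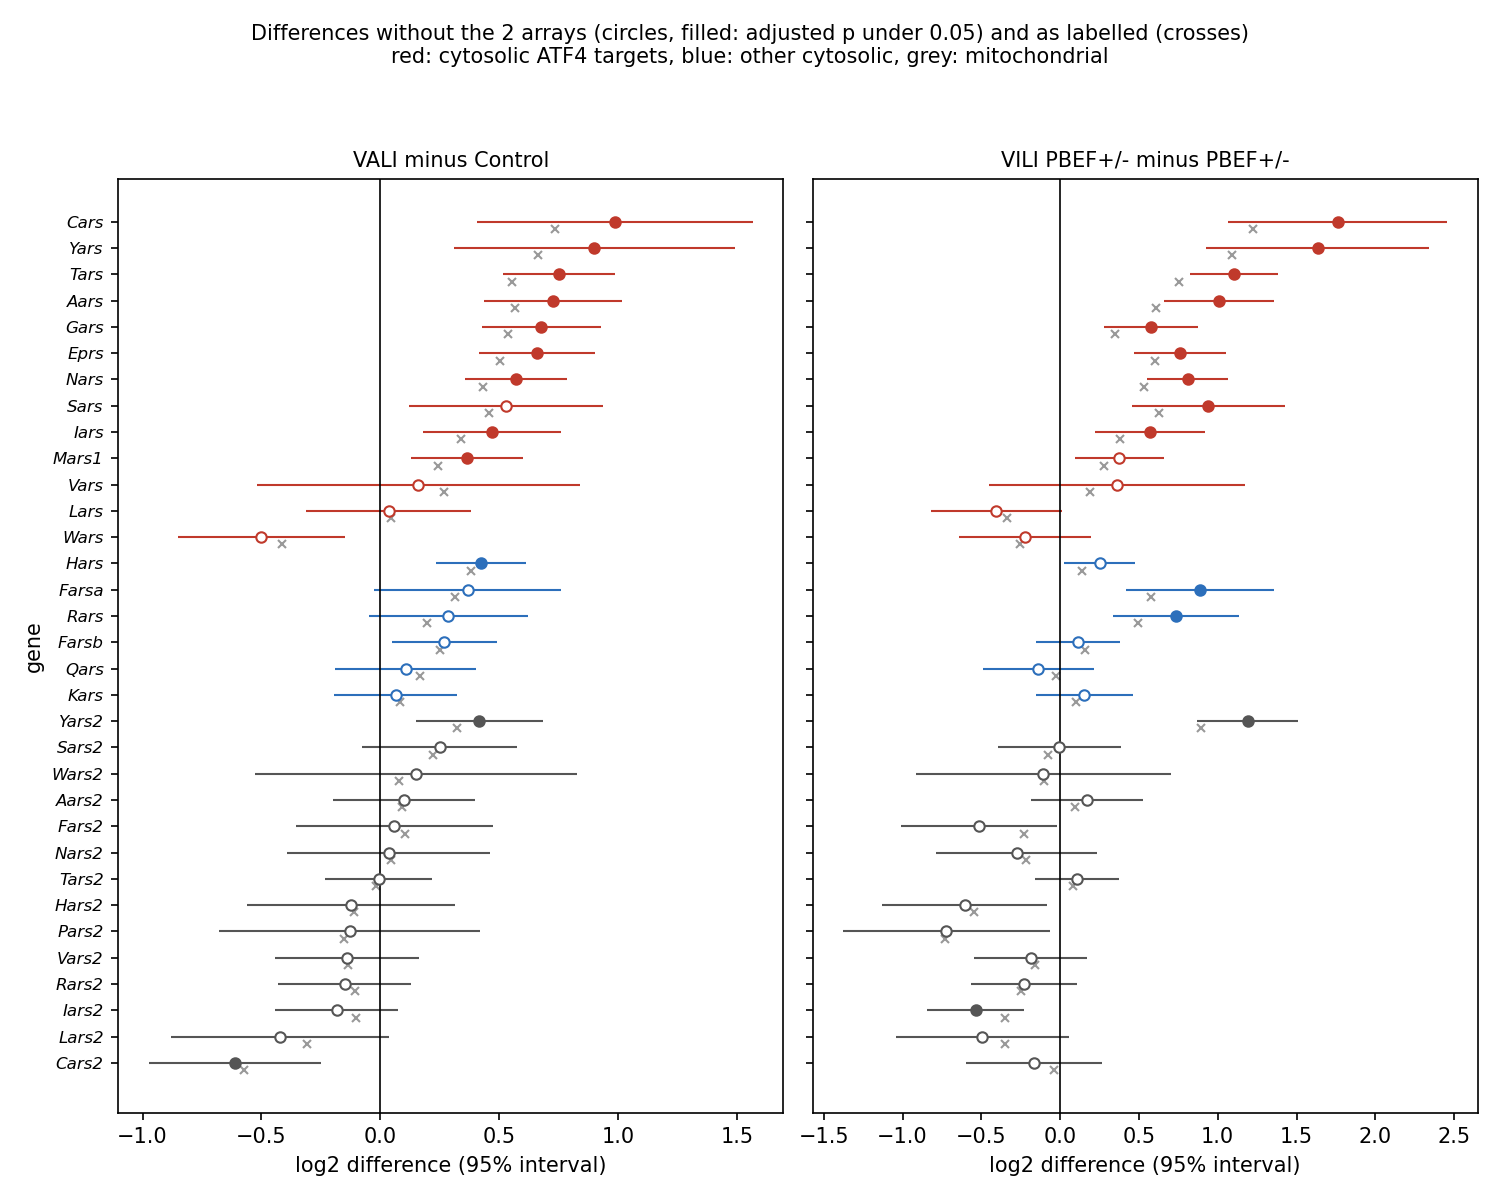
Log2 difference of the 33 tested synthetase genes in VALI against Control and in VILI PBEF+/- against PBEF+/-, without VALI replicate 4 and PBEF+/- replicate 3. Bars are 95% confidence intervals from limma, filled points passed at an adjusted p under 0.05 and crosses are the differences as labelled. In the panels, 12 and 13 points are filled, most of them cytosolic ATF4 targets above 0.

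The 2 ventilation comparisons share no array. They do share 1 estimate of spread, and an array was left out of each by its Il6 level, so their overlap is not that of independent tests. Aars, Cars, Eprs, Gars, Iars, Nars, Tars, Yars and Yars2 rose in both, which is 81.8% of the 11 genes that rose in the first and 75% of the 12 that rose in the second. Over all genes tested, 533 rose in both, or 71.8% of 742 and 42.1% of 1267. Ventilation patterns were also compared directly, as the difference between both responses. As labelled and without the doubted arrays, limma called 0 of 33 genes and 0% of all genes for this interaction. At an unadjusted p under 0.05 there was 1 gene of 33 as labelled, against 5.58% of all genes, and 1 without the doubted arrays, against 10.4%. The smallest p among the synthetase genes without the doubted arrays was that of Yars2 (log2 difference of responses 0.77, adjusted p = 0.328).

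PBEF+/- was then compared with Control to ask what changed without ventilation. limma called 0 of 33 genes and 0% of all genes in both settings. At an unadjusted p under 0.05 there was 1 gene as labelled, Cars2, against 8.26% of all genes, with a log2 difference of -0.60 and an adjusted p of 0.593. Without the doubted arrays there were 5, Cars2, Fars2, Farsa, Rars and Yars2, against 11.1% of all genes. As labelled the groups did not overlap for Sars2, which was higher (1.38% of all genes), and for Cars2 and Tars2, which were lower (4.45%). Without the doubted arrays Sars2 was again higher (4.48%), and Cars2, Farsa, Tars, Tars2 and Yars2 were lower (8.54%).

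VILI PBEF+/- against VALI compares ventilated lungs of different age. limma called 0 of 33 genes in both settings, against 0% of all genes as labelled and 0.114% without the doubted arrays. At an unadjusted p under 0.05 there were 2 as labelled, against 10.5% of all genes, and 3 without the doubted arrays, against 7.55%. In both settings the groups did not overlap for Aars2, Eprs and Yars2, which were higher in VILI PBEF+/- (4.67% of all genes as labelled, 5.99% without the doubted arrays). Kars and Pars2 were lower without overlap in both (10.2% and 12%). In the latter setting Tars differed by 0.09 (95% interval -0.16 to 0.35) and Aars by -0.04 (-0.35 to 0.27). The largest difference was that of Pars2, -0.81 (-1.40 to -0.22).

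Genes of the ATF4 programme other than the synthetases were then counted. As labelled, 0 of 27 tested genes of a list of ATF4 amino acid response genes were called in either ventilation comparison. With the doubted arrays left out, 18 of the 27 rose in VALI (6.53% of all genes) and 0 fell, with a median log2 difference of 0.98. In VILI PBEF+/- 21 rose (11.2% of all genes) and 0 fell, with a median of 1.09. Atf4 itself read 11.45, 11.21, 11.09 and 11.37 in Control and 12.54, 12.51, 12.53 and 11.51 in VALI. Its log2 difference was 1.24 ± 0.23 (adjusted p = 0.00502). Slc7a11 and Slc7a5, which import cystine and large neutral amino acids, had differences of 5.29 ± 0.28 and 3.58 ± 0.47. Slc7a11 read 2.69 to 3.09 in Control, below the array median. It passed the filter only through arrays where it was high, so its call is no separate support. Asns, which makes asparagine, and the serine pathway enzyme Psat1 had differences of 1.14 ± 0.16 and 2.25 ± 0.24. Mthfd2, a mitochondrial folate enzyme, and Slc7a1, which imports cationic amino acids, had differences of 2.87 ± 0.21 and 1.62 ± 0.17. Ddit3, a transcription factor of the same stress response, had a difference of 0.00 ± 0.17. On PBEF+/- replicate 2 Atf4 was high, at 12.68, while Asns was 9.80 and Aars 9.56.

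As labelled, 0 genes were called in either ventilation comparison in the lists of scaffold proteins, synthetases of the complex, eIF2α kinases, delivery factors, relatives and interferon response genes, so the counts that follow are without the doubted arrays. Of all genes, 6.53% rose and 10.5% fell in VALI, and 11.2% and 15.3% in VILI PBEF+/-. The scaffold protein gene Eef1e1 rose in both ventilation comparisons, by 0.59 ± 0.11 and 1.17 ± 0.13, while Aimp1 (-0.10 and -0.34) and Aimp2 (0.20 and 0.37) did not pass. Of 7 tested synthetases of the multisynthetase complex, 3 rose in each. The 6 tested genes for eIF2α kinases and phosphatase subunits gave 0 calls in VALI and 2 rises, Ppp1r15a and Ppp1r15b, in VILI PBEF+/-. Genes that deliver charged tRNA to the ribosome gave 0 calls of 6 in either comparison. Among 9 synthetase relatives and mitochondrial charging factors, Pstk, a kinase for selenocysteine tRNA, fell in both (-0.75 ± 0.21 and -1.35 ± 0.25), and Tarsl2 fell in VILI PBEF+/- (-0.81 ± 0.25). Of 9 interferon response genes, 2 fell in VALI, Ifit2 and Gbp2, and in VILI PBEF+/- 2 rose, Cxcl10 and Irf1, and Ifit2 fell.

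Markers of other cells were counted in the same way. As labelled, 0 markers were called in any list in either ventilation comparison. Leaving out the doubted arrays, 7 of 7 neutrophil markers rose in both (6.53% and 11.2% of all genes). Their mean log2 level was 5.69 to 6.75 in Control and 10.28 to 10.90 on VALI replicates 1 to 3, with 6.75 on replicate 4. It was 5.93, 7.34 and 10.64 in PBEF+/- and 10.78 to 11.02 in VILI PBEF+/-. The lowest of them by mean over the arrays was Clec4e, at 5.54. In Control, Clec4e read 2.05 to 3.19, Il1r2 2.69 to 3.95 and Mmp8 2.91 to 3.41, below the array median throughout. These genes passed the filter only through arrays where they were high, so their rises are no separate support. Club and ciliated cell markers fell for 4 of 5 genes in both, and B cell markers for 3 of 3 (10.5% and 15.3% of all genes). Endothelial markers fell for 3 of 6 genes in VALI and 2 of 6 in VILI PBEF+/-, and alveolar type I markers for 2 of 5 and 1 of 5. Of 7 macrophage markers, 2 rose in VALI, and 1 rose and 1 fell in VILI PBEF+/-. Alveolar type II markers gave 0 calls of 4 in either. Of 4 T and NK cell markers 1 rose in VALI, and of 4 heart markers 1 fell in VILI PBEF+/-. Skeletal muscle markers had a mean of 11.60 on VALI replicate 1 and 12.28 on replicate 4, against 4.24 to 7.79 elsewhere. The part of these cells in the synthetase differences was not tested.
With the female or male pattern as a covariate and without the doubted arrays, 7 of 12 calls held in VALI, those of Aars, Cars2, Eprs, Gars, Hars, Nars and Tars. In VILI PBEF+/- 11 of 13 held, and Iars and Iars2 did not (adjusted p = 0.065 and 0.051). Aars, Eprs, Gars, Nars and Tars were called in VALI in all 18 alternatives without the doubted arrays, and Aars, Cars, Eprs, Nars, Sars, Tars, Yars and Yars2 in VILI PBEF+/-.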

How the data were processed

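Total RNA of mouse lung was measured on 14 Affymetrix arrays. The deposited values are log2 expression per probe set, and the submitters' processing notes name GCRMA and MAS5 without a role for each. They spanned 0.446 to 16.1, with array medians of 4.60 to 4.75, and were used without further scaling. Array number limits the precision. Symbols came from the platform annotation: 34958 of 45101 probe sets had 1, 932 several and 9211 none. The 35 genes had 72 probe sets, and their Entrez identifiers all matched RefSeq.

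A linear model with 4 groups was fitted in limma 3.58.1 (R 4.3.3) to 11360 genes above the array median on at least 3 arrays, with a variance trend. p-values were adjusted by Benjamini-Hochberg over all of them, with calls made at an adjusted p under 0.05. Errors after ± are standard errors. The members, lists, tests and alternatives were chosen with earlier results of these data known. Any synthetase gene may be named. Values on every array are given for those called. Of the other lists, up to 6 genes with the smallest p in VALI against Control without the doubted arrays may be named, with Il6 and Nampt as checks. Atf4, Ddit3, Il1r2, Mmp8 and list members called only in VILI PBEF+/- against PBEF+/- were named after their values were seen. Alternatives covered the filter, probe set choice, scaling, variance model, array weights, sex pattern, replicate block and left-out arrays. Figures used matplotlib 3.10.9.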

Additional observations from a re-analysis of the deposited data

Results flagged for a closer look

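In 66 groups of 4 arrays examined for the synthetase genes, 4 had an array whose gap to the nearest other array, divided by the range, exceeded Dixon's 95% critical value. Chance gives about 1 in 20. Iars2 on Control replicate 4 read 10.05 against 9.80 to 9.84 on the others (ratio 0.832). Yars on Control replicate 1 read 6.57 against 7.35 to 7.40 (ratio 0.935). Sars2 on VALI replicate 1 read 7.33 against 7.05 to 7.09 (ratio 0.865). Wars2 on VALI replicate 3 read 5.16 against 4.27 to 4.30 (ratio 0.969). No synthetase gene moved in opposite directions on every array of the 2 ventilation comparisons (0 genes).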

How the results depend on the processing

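As labelled, 0 of 33 synthetase genes were called in each of the 5 comparisons, and this count held with other filters, probe set rules, scalings, no variance trend, the groups compared alone, the sex pattern as a covariate and the replicate number as a block (0 calls). Pairing by replicate number was looked for in deviations from the group means. Same-numbered arrays correlated at -0.35 to 0.32 (mean -0.011) and other-numbered arrays at -0.69 to 0.49 (mean 0.0042). These values include the doubted arrays and cannot show whether a number marks a shared animal or day. Array weights gave 15 calls in VALI against Control, 14 in VILI PBEF+/- against PBEF+/- and 5 in VILI PBEF+/- against VALI. Leaving out 1 array gave 0 to 3 calls in VALI against Control (3 without VALI replicate 4, 1 without PBEF+/- replicate 3) and 0 to 12 in VILI PBEF+/- against PBEF+/- (12 without PBEF+/- replicate 3). Leaving out both doubted arrays gave 12 and 13, and 7 and 11 with the sex pattern. Leaving out 1 more array gave 6 to 14 and 9 to 15, and in PBEF+/- against Control 0 to 8 and in the interaction 0 to 4, where 8 and 4 came from an arm of 1 array.

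Alternatives added after seeing the data, all without the doubted arrays, gave in the 2 ventilation comparisons 8 and 13 calls with no filter, 14 and 13 with quantile normalization, 9 and 13 with median centring and 9 and 13 with the mean of all probe sets. Array weights then gave 16 and 9, and 5 in VILI PBEF+/- against VALI. Alternatives were also read for 29 gene results, namely the 12 and 13 calls made without the doubted arrays and a few added by name. Those added were Wars and Sars in VALI against Control and Hars and Mars1 in VILI PBEF+/- against PBEF+/-. They were set against the fit as labelled, in which no synthetase gene was called, so none could lose a call. Of 1272 alternatives, 808 kept direction and stayed uncalled, 462 were called and 2 reversed. Many alternatives left out the same doubted arrays, so the 462 follow in part from how the results were chosen and are no separate support. Both reversals used the lowest-mean probe set: Cars2 in VALI against Control (0.0024) and Farsa in VILI PBEF+/- against PBEF+/- (-0.14). The cause was not tested.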
